A study of Mus musculus with 8 samples.

Results

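This account follows 10 genes of the p53 response in a mouse macrophage-like line given 3 compounds: Trp53, which encodes p53, its inhibitor gene Mdm2, and the target genes Ccng1, Btg2, Zmat3, Plk2, Fas, Phlda3, Trp53inp1 and Gdf15. They were chosen by name, as known p53 pathway genes apart from p21, and all 10 were found among the 45622 genes and unnamed transcripts on the array, read by 14 probes. The cells were J774.1, a line of BALB/c origin, and all 4 groups held 2 biological replicates each: control (Ctrl), isorhamnetin (IR) at 10 µM, tamarixetin (TAM) at 10 µM, and Torin1 at 1 µM, each compound given for 6 h. The labels do not state how the control cells were handled, a vehicle included. Isorhamnetin and tamarixetin are isomers, both O-methylated forms of the plant flavonol quercetin, that carry the methyl group on neighbouring hydroxyl groups of the same ring. Torin1 inhibits the kinase mTOR in both of its complexes. The line is a single tumour-derived cell line, so the replicates measure the spread between cultures of 1 line. Total RNA was labelled with Cy3 and hybridised to 8 Agilent arrays. Each value below is a probe's signal on the log2 scale, with the array's 75th percentile subtracted, so a difference of 1 is a 2-fold change. Signals of different probes are not compared with each other.

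p53 is a transcription factor that is held low in unstressed cells by the ubiquitin ligase Mdm2, and Mdm2 is itself a p53 target, which closes a feedback loop. When DNA damage or other stress stabilises the protein, p53 binds pairs of a short DNA decamer near its targets and raises genes for cell-cycle arrest, DNA repair, death signalling and metabolic restraint. Because this control acts mostly on the protein, the Trp53 transcript is not itself a readout of p53 activity, and most targets also answer to other factors. In macrophages p53 is known to restrain proliferation and inflammatory transcription.

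The arrays carried the transcripts of the labelled cell type. Of 10 macrophage markers, 9 were well above background on all 8 arrays, and Mertk was on none. Of the 5 T cell markers Cd3e and Lck were above background on all 8 arrays, and no marker of B cells, fibroblasts, epithelial cells or endothelial cells was. The summed T cell marker signal lay between 1.74 and 1.95 (log2) in control and between 1.23 and 1.39 with Torin1, and the macrophage sum between 9.77 and 9.79 and at 9.89. The share of probes well above background ran from 41.5% to 52.3% per array, and the 75th percentile of the signal from 318 to 403. All 8 arrays lay on 1 slide, with control and isorhamnetin in 1 slide row and tamarixetin and Torin1 in the other, and each group in columns of its own within a row, so position and group cannot be told apart. These are whole cultures, in which fewer expressing cells and less RNA per cell cannot be told apart.

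Of the 10 genes, 9 passed the filter on dim probes, which asked that 1 or more groups have a signal well above background on each of their 2 arrays. Trp53, Mdm2, Ccng1, Btg2, Zmat3, Fas and Phlda3 were above background on all 8 arrays. Plk2 passed through the Torin1 arrays alone and Trp53inp1 through the isorhamnetin arrays alone. Gdf15 did not pass.

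Upstream sequences are shown for 4 of the genes called with Torin1 (adjusted p < 0.05 in limma) that held a match to a searched motif. They were chosen after the matches and the differences were known. Plk2 is among them although it entered the test only through the Torin1 arrays. Mdm2 also was called and held a match, but its sequence is not printed. RefSeq (GRCm38.p6) gave an upstream sequence for 8 of the 10 genes, all but Zmat3 and Trp53inp1, and the 250 bases before each start were searched on both strands. Capitals mark a p53-binding decamer in Ccng1, the cyclic AMP response element TGACGTCA in Plk2 and Btg2, and in Fas the AP-1 site TGANTCA followed by the E-box CACGTG. Each is written 5′ to 3′ on the strand of the gene.
Ccng1 (chr11:40755287-40755536, minus strand): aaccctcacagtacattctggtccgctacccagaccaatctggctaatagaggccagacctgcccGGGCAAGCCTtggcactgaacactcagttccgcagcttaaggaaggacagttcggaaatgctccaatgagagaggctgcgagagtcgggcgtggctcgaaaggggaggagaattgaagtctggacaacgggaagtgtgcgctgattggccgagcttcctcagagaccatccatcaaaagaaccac
Plk2 (chr13:110394794-110395043, plus strand): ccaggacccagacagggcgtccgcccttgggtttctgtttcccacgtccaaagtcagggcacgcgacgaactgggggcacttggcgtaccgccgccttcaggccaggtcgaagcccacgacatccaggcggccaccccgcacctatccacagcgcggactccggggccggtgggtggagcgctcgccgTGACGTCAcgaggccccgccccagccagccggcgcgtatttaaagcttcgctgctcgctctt
Btg2 (chr1:134079156-134079405, minus strand): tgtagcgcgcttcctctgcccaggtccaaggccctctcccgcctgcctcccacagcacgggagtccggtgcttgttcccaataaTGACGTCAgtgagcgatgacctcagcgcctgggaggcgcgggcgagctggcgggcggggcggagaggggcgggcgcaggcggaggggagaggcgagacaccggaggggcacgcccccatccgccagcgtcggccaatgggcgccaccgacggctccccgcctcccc
Fas (chr19:34290409-34290658, plus strand): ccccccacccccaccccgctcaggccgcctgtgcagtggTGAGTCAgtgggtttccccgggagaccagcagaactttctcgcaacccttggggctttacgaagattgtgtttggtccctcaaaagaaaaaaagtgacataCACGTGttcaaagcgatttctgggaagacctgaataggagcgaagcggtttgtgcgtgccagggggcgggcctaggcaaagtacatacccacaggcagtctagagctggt

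The p53-binding decamer, searched by its consensus without mismatch, was found once in each of the Trp53, Mdm2 and Ccng1 windows, and in 7.13% of 32851 promoter windows of the same length in the table. A full p53 site, a pair of decamers with at most 13 bases between them, was in none of the windows of the 8 genes and in 0.064% of all windows. Sites outside these 250 bases, or with a mismatch, were not searched, so a gene without a match here can still hold a p53 site. The p21 gene Cdkn1a, which is not among the 10, held 1 such pair upstream of 1 of its starts, from 73 to 42 bases before it. The pair as matched is printed for comparison with the single decamer of Ccng1. In the window it is followed directly by tgacatgttc, which misses the consensus by its leading T and so was not matched.
Cdkn1a site (in the window chr17:29090729-29090978, plus strand): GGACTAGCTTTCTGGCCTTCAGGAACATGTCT
The cyclic AMP response element stood in 1.55% of windows, CACGTG in 6.02% and TGANTCA in 6.75%. The antioxidant element TGACNNNGC, in 10.2% of windows, was matched in Trp53, and CACGTG also in 1 of the 2 Gdf15 windows. These matches describe the printed letters and are not binding sites shown here.

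With Torin1, of the 7 genes above background on all 8 arrays, 1 rose and 5 fell. Of all tested genes above background on all 8 arrays, 19.8% were called higher and 34.7% lower. Fas, a death receptor, rose 3.03-fold. Phlda3, Btg2, Ccng1, Zmat3 and Mdm2 fell, by 2.36-fold for Phlda3 and by 1.17-fold for Mdm2. The fall of Mdm2 was that of its brighter probe, while the dimmer one was at -0.02. The Mdm2 call was lost in 8 of 20 alternative analyses. Trp53 did not pass. Of the 2 dim genes Trp53inp1 did not pass, and Plk2, a polo-like kinase, was called higher, at least 2.24-fold, but it had entered the test only through the Torin1 arrays, where it was high. Torin1 changed a large part of the transcriptome: in limma (Benjamini-Hochberg adjusted p < 0.05) 49.4% of 21528 genes were called, 19.3% higher and 30.1% lower, and the median of all genes was -0.10. The arrays of the groups did not overlap for 8 of the 9 genes, against 79.3% of all genes. The 8 include Plk2, whose separation the filter favoured. The median over the 9 genes was -0.23. The direction of calls over all genes depended on the scaling. Of the genes called, 39.0% were higher as reported, against 22.5% with median scaling (median of all genes -0.28) and 56.6% when the 75th percentile was taken over probes above background on all arrays (median 0.04). Relative to the median of all genes, the differences with Torin1 were 1.70 for Fas, -1.14 for Phlda3, -0.56 for Btg2, -0.54 for Ccng1 and for Zmat3, and -0.13 for Mdm2. The summed T cell markers were lower with Torin1, as given above, and the summed fibroblast markers were higher with Torin1 (-1.77 to -1.54) and with tamarixetin (-1.80 to -1.58) than in control (-2.39 to -2.15). Dcn was the 1 of 5 fibroblast markers above background on any array, and on no tamarixetin array. The fibroblast sums therefore rest mostly on dim probes, and the lowest signal well above background differed between arrays. For control arrays this limit was -3.95 and -3.90, for tamarixetin arrays -3.08 and -3.06, for Torin1 arrays -3.29 and -3.66. Isorhamnetin arrays had lower limits, -4.16 and -4.62, with fibroblast sums of -2.24 to -1.97. The part of this limit in the fibroblast sums was not tested, nor was that of the T cell and fibroblast markers in the Torin1 results.

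**Figure D1:**
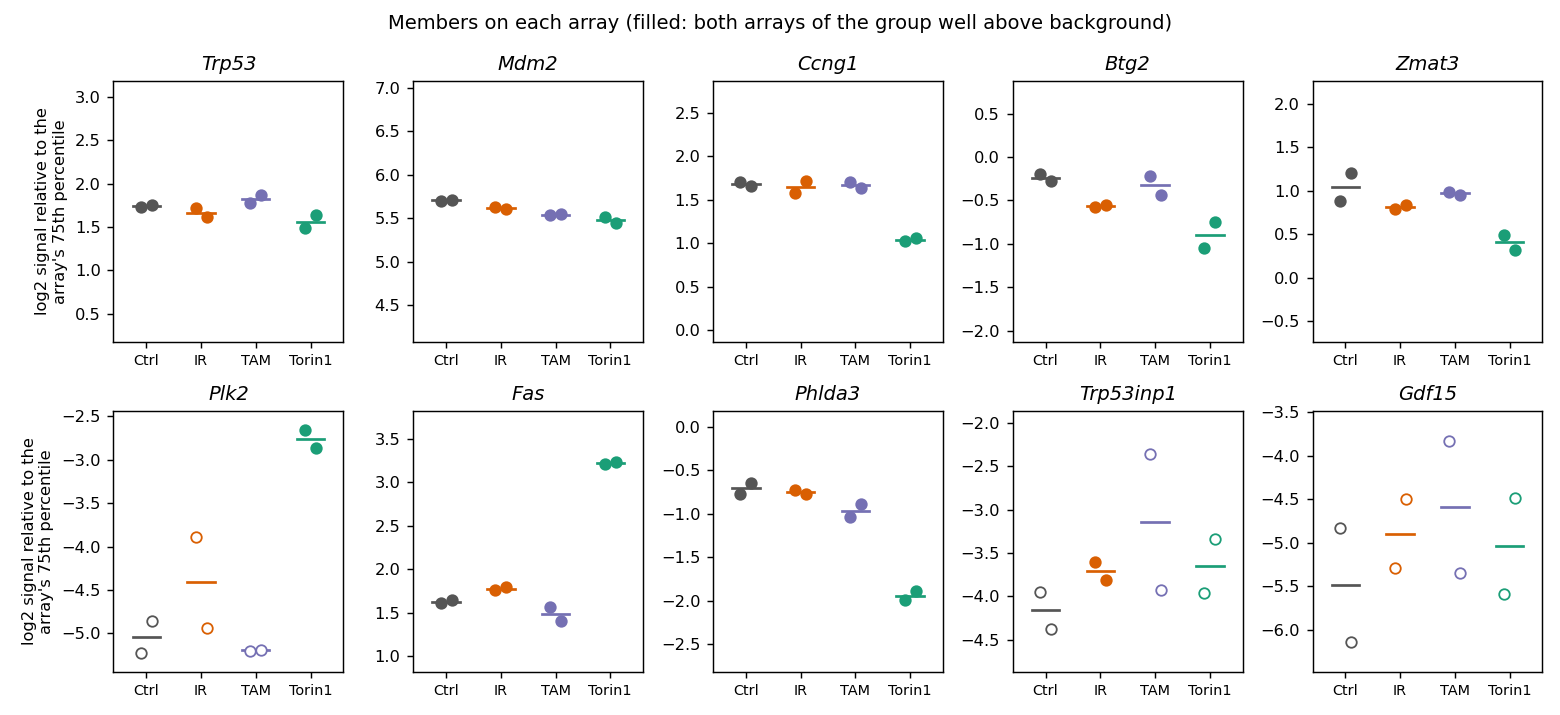
Log2 signal minus the array's 75th percentile (vertical axis, each panel with its own range) for the 10 genes in control (Ctrl), isorhamnetin (IR), tamarixetin (TAM) and Torin1 cells. Points are single arrays and bars the mean of 2, with open points where at least 1 array of the group was not well above background. The Torin1 arrays stand apart for Fas and Plk2 (above the rest) and for Phlda3, Ccng1, Btg2 and Zmat3 (below the rest).

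The p53 gene itself passed no test as reported. Trp53 (NM_011640) had 1.73 and 1.75 in control and, in the treated cells, 1.72 and 1.61 (isorhamnetin), 1.78 and 1.87 (tamarixetin) and 1.49 and 1.63 (Torin1). The lowest values were those of a Torin1 and an isorhamnetin array, and the whole span over 8 arrays was 0.38. Torin1 minus control was -0.17 ± 0.08 (SE, n = 2 arrays per group, 95% interval -0.36 to 0.01, adjusted p = 0.107 in limma). Relative to the median of all genes it was -0.08. Median scaling moved the value to -0.35 and gave a call (adjusted p = 0.0207). For isorhamnetin the difference was -0.07 (-0.26 to 0.11) and for tamarixetin 0.09 (-0.10 to 0.28). The order of the means was tamarixetin, control, isorhamnetin and Torin1, and no neighbours in that order passed a test where one was run.

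Mdm2, the ligase that marks p53 for degradation, was read by a pair of probes to the same transcript (NM_001288586). The brighter probe gave 5.70 and 5.71 in control, 5.62 and 5.60 with isorhamnetin, 5.53 and 5.55 with tamarixetin, against 5.52 and 5.44 with Torin1. The 4 groups did not overlap on this probe, in the order control, isorhamnetin, tamarixetin and Torin1. Torin1 minus control was -0.23 ± 0.05 (adjusted p = 0.014). The dimmer probe did not share this difference: it gave -0.94 and -0.85 in control and -0.96 and -0.86 with Torin1, a difference of -0.02 ± 0.06 (95% interval -0.17 to 0.14, adjusted p = 0.858 over all probes). The call on the brighter probe was lost without control replicate 1 (-0.23, adjusted p = 0.0527), control replicate 2 (-0.22, 0.0634) or Torin1 replicate 2 (-0.19, 0.0821), where the difference stayed of like size with fewer arrays. It was also lost with quantile normalization (-0.04, adjusted p = 0.557) and with the percentile over probes above background (-0.09, 0.204). That probe lies within the first 48 spot rows.

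Among the growth-control genes, Ccng1, cyclin G1, which recruits a phosphatase to Mdm2, was even in 3 of the groups. Its probe (NM_009831) had 1.70 and 1.65 in control, 1.58 and 1.71 with isorhamnetin, and 1.70 and 1.64 with tamarixetin. With Torin1 it had 1.02 and 1.06, below every other array. The fall with Torin1 was -0.64 ± 0.07 (1.56-fold lower, adjusted p = 0.000988). Control, isorhamnetin and tamarixetin overlapped, with differences from control of -0.03 (-0.19 to 0.13) and -0.01 (-0.17 to 0.15).

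Btg2, an antiproliferative factor that recruits the deadenylase complex to mRNA, was read by a pair of probes (NM_007570) that both fell with Torin1. The brighter had -0.20 and -0.28 in control, -0.57 and -0.55 with isorhamnetin, -0.21 and -0.44 with tamarixetin, against -1.05 and -0.75 with Torin1. Torin1 was below all other groups, isorhamnetin lay between it and control, and tamarixetin overlapped control. Torin1 minus control was -0.66 ± 0.12 (1.58-fold lower, adjusted p = 0.00747). The dimmer probe had -0.78 and -0.82 in control and -1.45 and -1.43 with Torin1, a difference of -0.64 ± 0.12 (adjusted p = 0.00675 over all probes). With isorhamnetin the probes gave -0.33 ± 0.12 and -0.46 ± 0.12, and neither passed (adjusted p = 0.302 over genes and 0.181 over probes).

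Zmat3, a zinc finger protein that binds RNA, had 0.88 and 1.20 in control (NM_009517), 0.79 and 0.84 with isorhamnetin, 0.99 and 0.96 with tamarixetin, against 0.49 and 0.32 with Torin1. The control arrays lay further apart than those of any other group, and both Torin1 arrays were below all others. The fall with Torin1 was -0.63 ± 0.12 (1.55-fold lower, adjusted p = 0.00762). Isorhamnetin gave -0.23 (95% interval -0.52 to 0.07) and tamarixetin -0.07 (-0.36 to 0.23).

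Plk2, a kinase of centriole duplication that is also an immediate early gene, was near background except with Torin1. Its single probe (NM_152804) had -5.23 and -4.86 in control, -3.89 and -4.94 with isorhamnetin, -5.20 and -5.19 with tamarixetin, against -2.66 and -2.86 with Torin1. It was well above background on both Torin1 arrays, on 1 of 2 isorhamnetin arrays and on no control or tamarixetin array. Against the lowest signal measurable on the control arrays it was at least 2.24-fold higher with Torin1, and the fit gave adjusted p = 0.00344. Since the gene entered the test through the Torin1 arrays, a difference of this kind was favoured by the filter. The fitted difference of 2.28 shrank to 0.50 with normexp background correction (adjusted p = 0.0339), which adds an offset to all signals. The probe lies in the first 48 of 384 spot rows, where Plk2 has no other probe, so it has no value without those rows.

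Of the death and survival genes, Fas rose and Phlda3 fell with Torin1. Fas, a death receptor of the tumour necrosis factor receptor family, had 1.61 and 1.65 in control (NM_007987), 1.77 and 1.79 with isorhamnetin, 1.57 and 1.40 with tamarixetin, against 3.22 and 3.24 with Torin1. The groups did not overlap: Torin1 was far above, then isorhamnetin, control and tamarixetin. Torin1 minus control was 1.60 ± 0.07 (3.03-fold, adjusted p = 9.52e-05), and every one of the 20 alternative analyses gave between 1.42 and 1.74, all called. Isorhamnetin gave 0.15 ± 0.07 (adjusted p = 0.384) and tamarixetin -0.14 ± 0.07 (adjusted p = 0.423). A second Fas probe, to another transcript (NM_001146708), was not well above background on any array.

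Phlda3, a pleckstrin homology protein that competes with the kinase Akt for membrane lipids, had -0.77 and -0.64 in control (NM_013750), -0.73 and -0.77 with isorhamnetin, -1.04 and -0.89 with tamarixetin, against -1.996 and -1.890 with Torin1. Torin1 was below every other array and tamarixetin below control and isorhamnetin, which overlapped. The fall with Torin1 was -1.24 ± 0.08 (2.36-fold lower, adjusted p = 0.000284). With normexp background correction it was -0.81 (adjusted p = 0.00018). For tamarixetin the difference was -0.26 ± 0.08 (adjusted p = 0.28).

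Trp53inp1, a stress protein of the nucleus and of autophagy, was close to background in every group. Its brighter probe (NM_021897) had -3.94 and -4.38 in control, -3.61 and -3.82 with isorhamnetin, -2.36 and -3.93 with tamarixetin, against -3.96 and -3.34 with Torin1. The tamarixetin replicates differed by 1.57, and the spread within groups was larger than for 96.9% of genes tested. No comparison passed, with differences from control of 0.45 (95% interval -0.85 to 1.75) with isorhamnetin, 1.02 (-0.28 to 2.32) with tamarixetin and 0.51 (-0.79 to 1.81) with Torin1. These intervals are too wide to tell a change of 2-fold from none. The dimmer probe to the same transcript did not pass the filter. It had -4.29 and -3.76 in control, -4.08 and -3.95 with isorhamnetin, -4.58 and -3.67 with tamarixetin, against -3.44 and -4.12 with Torin1.

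Gdf15, a secreted factor of the transforming growth factor beta family, could not be measured. Its only probe (NM_011819) had -4.83 and -6.15 in control, -5.29 and -4.50 with isorhamnetin, -3.82 and -5.35 with tamarixetin, against -5.59 and -4.49 with Torin1. It was well above background on 1 array, of isorhamnetin, and all groups overlapped. Without the filter, Torin1 minus control was 0.45 (95% interval -1.43 to 2.33, adjusted p = 0.662 over 45386 genes), and no other comparison passed.

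**Figure D2:**
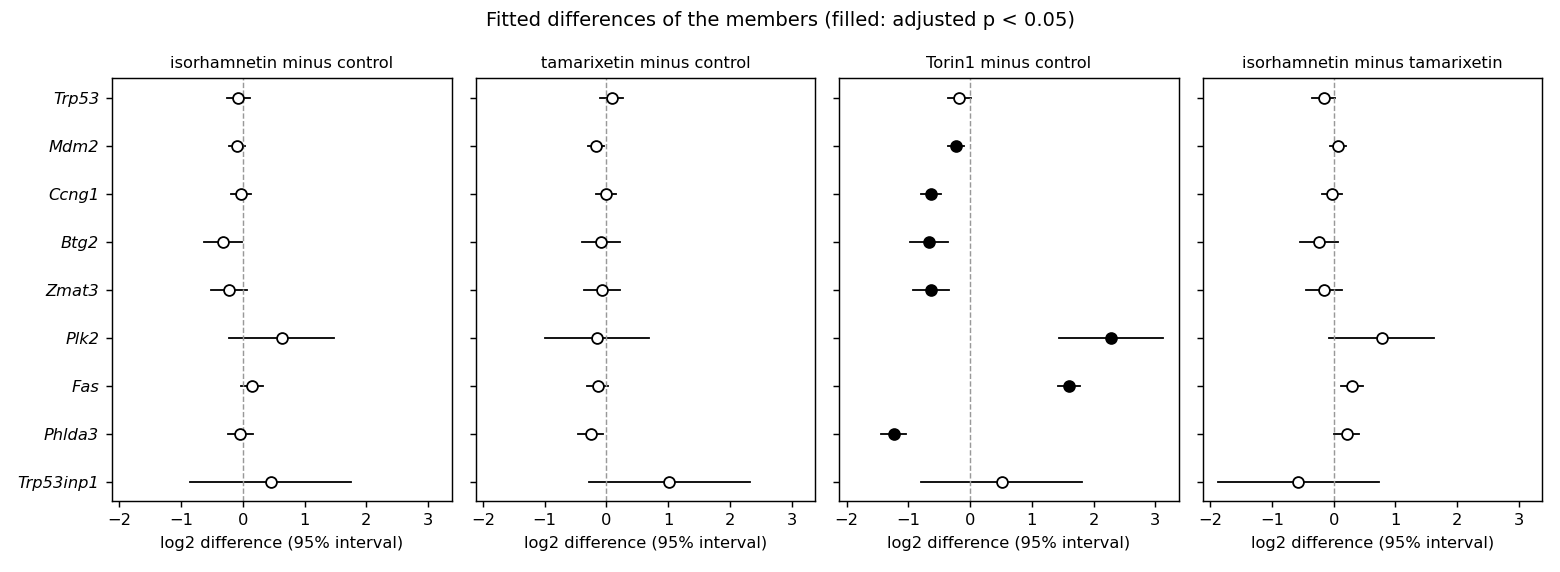
Fitted log2 differences of 9 genes (horizontal axis, with 95% intervals from limma) in the 4 comparisons, filled where adjusted p was under 0.05. Filled points appear only for Torin1 minus control, from -1.24 for Phlda3 to 1.60 for Fas. The point for Plk2 also is filled, but its control arrays were not well above background, so its position is not a measured size, and Plk2 and Trp53inp1 have the widest intervals.

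With isorhamnetin 0 of the 9 genes were called in limma, against 0.543% of all genes (0.418% higher and 0.125% lower), and 1 of 9, Btg2, had an unadjusted p under 0.05 (0.0407), as did 15.4% of all genes. The arrays of isorhamnetin and control did not overlap for 6 of 9 genes, where 49.7% of all genes did not. The 6 include Trp53inp1, which entered the test only through the isorhamnetin arrays, so the filter favoured its separation. With tamarixetin 0 of 9 were called, against 0.079% of all genes (0.0697% higher and 0.00929% lower). There Mdm2 (-0.17 ± 0.05, unadjusted p = 0.0188) and Phlda3 (unadjusted p = 0.0223) were under 0.05, as were 14.3% of all genes, with adjusted p of 0.27 and 0.28. Groups did not overlap for 5 of 9, against 46.9%, and the 5 include Trp53inp1, which was close to background. None of the 20 alternative analyses called any of the 10 genes in either comparison. The 3 comparisons with control share the 2 control arrays, so their values are not independent.

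The isomers were compared directly at the same dose and time, as 1 pair. None of the 9 genes passed in limma, against 0.827% of all genes called (0.585% higher and 0.242% lower), and 2 of 9 had an unadjusted p under 0.05, as did 13.3% of all genes. Fas was higher with isorhamnetin than with tamarixetin by 0.29 ± 0.07 (95% interval 0.12 to 0.47, unadjusted p = 0.00685, adjusted p = 0.181). Phlda3 was at 0.21 ± 0.08 (0.01 to 0.42, unadjusted p = 0.0433, adjusted p = 0.357). The intervals of the other well-measured genes reached at most 0.54 in either direction: Trp53 -0.16 (-0.35 to 0.03), Mdm2 0.07 (-0.05 to 0.20), Ccng1 -0.02 (-0.18 to 0.14), Zmat3 -0.16 (-0.45 to 0.14) and Btg2 -0.24 (-0.54 to 0.07). Plk2 and Trp53inp1 had intervals of -0.07 to 1.63 and -1.87 to 0.73. Groups did not overlap for 7 of 9 genes, where 42.4% of all genes did not. The 7 include Plk2, which was not well above background on any tamarixetin array. Torin1 was given at another dose and is not a flavonol, so it was not compared with the isomers.

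Other p53 target genes were lower more often than higher with Torin1. Of a list of 47, 45 had a probe and 41 were tested, all of them above background on all 8 arrays. Of these, 6 rose and 21 fell, or 14.6% and 51.2%, against 19.3% and 30.1% of all genes, with a median of -0.31 against -0.10. Among genes above background on all 8 arrays the background was 19.8% higher and 34.7% lower. Across the 20 alternative analyses 18 to 24 fell and 1 to 9 rose, the lowest count of rises being with median scaling.

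The p21 gene Cdkn1a, a cyclin-dependent kinase inhibitor, had 4.13 and 4.07 in control, 3.82 and 3.80 with isorhamnetin, 4.06 and 3.93 with tamarixetin, against 1.86 and 1.87 with Torin1. It fell with Torin1 by 4.71-fold (-2.23 ± 0.06, adjusted p = 3.41e-05), while isorhamnetin gave -0.29 ± 0.06 (adjusted p = 0.131). Its second probe, to another transcript, had 0.46 and 0.42 in control and -1.68 and -1.55 with Torin1, again without overlap. The sestrin genes Sesn1 and Sesn2, whose proteins restrain mTOR complex signalling, fell by 1.27 and 1.26 on the log2 scale. The genes that rose did so by less. Bbc3, the death gene PUMA, rose by 0.69 ± 0.05 (adjusted p = 0.000414), Bcl2l1, a survival gene, by 0.46, Xpc, a DNA damage sensor, by 0.45 and Abhd4, a lipase, by 0.30. With median scaling the last 3 lost their calls (adjusted p = 0.0748 for Bcl2l1, 0.154 for Xpc and 0.373 for Abhd4), and Abhd4 also without the filter and without Torin1 replicate 1. With isorhamnetin, tamarixetin and between the isomers 0 of 41 were called in limma. An unadjusted p under 0.05 was found for 11, 5 and 10 of the 41, and for 15.4%, 14.3% and 13.3% of all genes.

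**Figure D3:**
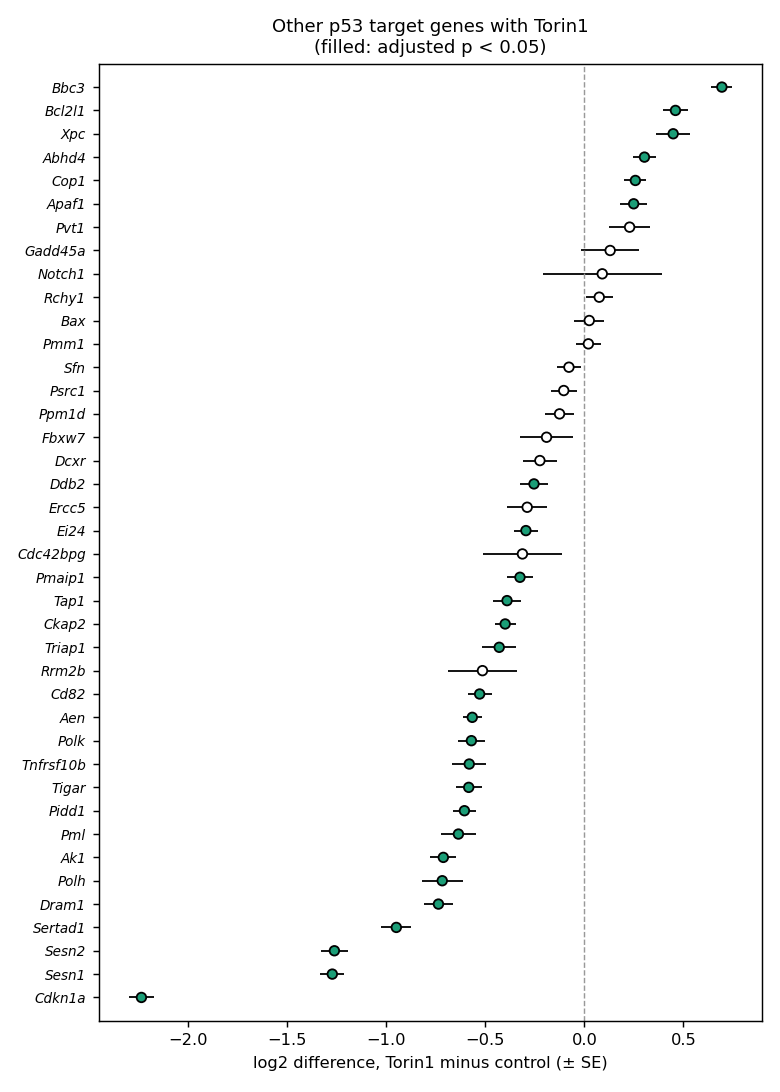
Log2 difference of Torin1 minus control (horizontal axis, ± SE) for 40 of the 41 tested genes of the list of other p53 targets, sorted by size and filled where adjusted p was under 0.05. Of these, 20 filled points lie below 0, down to -2.23 for Cdkn1a, and 6 above it, up to 0.69 for Bbc3.

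Regulators of p53 went both ways. Of 27 listed, 25 were tested. With Torin1 5 rose and 8 fell, 20% and 32%, near the 19.3% and 30.1% of all genes, with a median of -0.08. The balance turned with the scaling: 5 rose and 3 fell with the percentile over probes above background (median 0.06), 6 rose and 6 fell with quantile normalization (median 0.04), and 2 rose and 10 fell with median scaling. Without the filter 2 rose and 2 fell. Prkdc, the DNA-dependent protein kinase, rose by 0.77 ± 0.06, the deacetylase gene Sirt1 by 0.61, the damage kinase gene Atr by 0.33 and the p53 kinase gene Hipk2 by 0.25. Ppp1r13l, an inhibitor of p53, fell by 0.84 ± 0.10, the deacetylase gene Hdac1 by 0.50, Trp53bp1, a DNA repair adaptor, by 0.33 and Trp73, a p53 relative, by 0.29. Trp73 and Hipk2 kept their calls in only 9 of 20 alternative analyses each. Atr lost its call with median scaling, without the filter, and without control replicate 2 or Torin1 replicate 1, and Trp53bp1 without the filter and with probes averaged. Mdm4, a partner of Mdm2, had -0.03 ± 0.09 (95% interval -0.27 to 0.20, adjusted p = 0.782), positive under some scalings (up to 0.10). None of the 25 was called in limma with isorhamnetin, with tamarixetin or between the isomers, and 1, 2 and 0 of them had an unadjusted p under 0.05, against 15.4%, 14.3% and 13.3% of all genes.

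Patterns across the arrays were dominated by Torin1. Over the 8 arrays, the values most like those of Fas among all genes with a symbol were those of Zfand5, Osgin2 and Hcar2 (Pearson r = 0.999 each). For Phlda3 they were Lrrk1 (0.999), Hs3st3b1 (0.997) and Pik3r2 (0.997), and for Ccng1 they were Pbk (0.998), Orc3 (0.997) and Trmt61b (0.997). With 4 groups of 2 arrays such values describe a step between Torin1 and the rest.

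**Figure D4:**
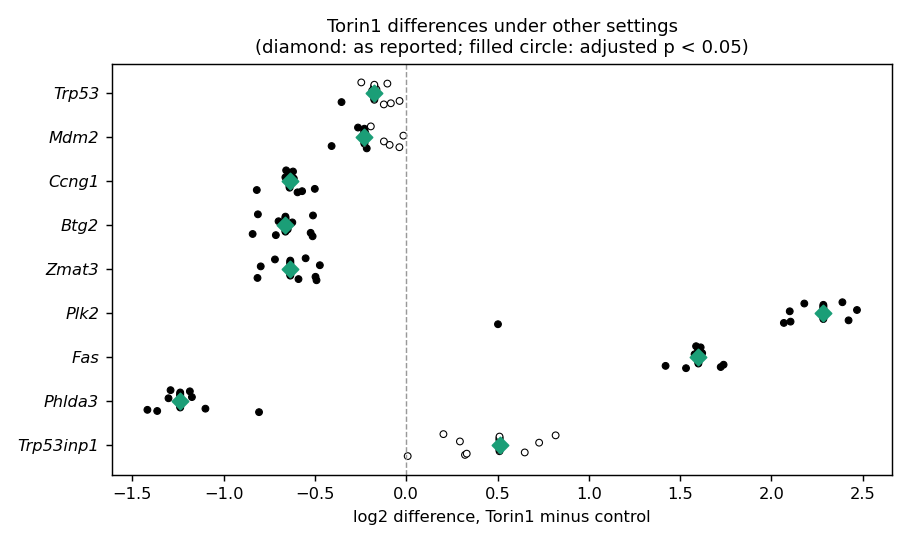
Log2 difference of Torin1 minus control (horizontal axis) for 9 genes as reported (diamond) and under each alternative analysis (circles, filled where adjusted p was under 0.05). Fas stays between 1.42 and 1.74 and Ccng1 between -0.82 and -0.50, while Mdm2 comes as near to 0 as -0.02. Plk2, not well above background in control, drops to 0.50 in 1 analysis.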

How the data were processed

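The 10 genes and the gene lists were chosen with earlier results of these data known. The authors deposited 1-colour Agilent intensity values (processed signal, background subtracted and spatially detrended, per the file headers), made with Agilent Feature Extraction version 10.7.1.1 per the submitters' processing notes. The log2 value table deposited by the authors was matched to these. The log2 signal less the array's 75th percentile over non-control probes, centred on each probe's median, agreed within 0.01 for 99.96% of 56282 probes. Its columns had medians of -0.11 to 0.17. Outlier spots were dropped, which left out 323 of 56605 probes, and replicate spots were averaged. Probes were named by RefSeq accession (32994 with a symbol, 23611 without), with names of the assembly GRCm38.p6. The file headers name mm9, so no probe coordinates are given. Probes were kept (27562) if 1 or more groups had them well above background on each of 2 arrays, and the brightest probe of a gene was tested (21528 genes, 12935 with a symbol), with the other probes of the 10 genes beside it in a fit of all kept probes. All 8 arrays entered 1 fit in limma 3.58.1 (R 4.3.3) with a mean per group and 4 residual degrees of freedom. Tests were two-sided with Benjamini-Hochberg adjustment over all genes, called under 0.05, and the code was tested on simulated data. No exact test of 2 arrays against 2 can pass that threshold. Where the dim group was not well above background on any array, a fold is a lower bound, computed against the lowest signal well above background on those arrays or the probe's own, if higher. The number of arrays limits the precision. All 10 genes are named. Of the lists, Cdkn1a, Mdm4 and at most the 4 largest called genes per direction are named, and 1 gene of the lists is counted but not reported here by name, and the most similar genes are given for the 3 called genes with the smallest p. Slide and scan blocks were not run, since all arrays shared 1 slide and 1 scan.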

Additional observations from a re-analysis of the deposited data

How the results depend on the processing

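The calls of Fas, Phlda3, Ccng1, Zmat3 and Btg2 with Torin1 kept their direction and passed the threshold in all 20 alternative analyses. The call of Plk2, which the filter favoured, says nothing of this kind, and Plk2 has no value without the first 48 spot rows or with probes above background on all 8 arrays. Of the 10 genes, of which Gdf15 was tested only without the filter, 5 to 8 were called with Torin1 over 20 alternatives. As reported these were 7, with Plk2 among them. In the other comparisons 0 were called. Mdm2 also lost its call without the filter (adjusted p = 0.109), with probes averaged per gene (-0.12, 0.0962) and without the first 48 spot rows (-0.02, 0.854). Called regulators with Torin1, 13 as reported, were 8 with the percentile over probes above background, 4 without the filter and 5 to 12 without single arrays. Other targets called, 0 as reported, were 2 with isorhamnetin under probes above background on all 8 arrays and under trend and robust eBayes, 2 with tamarixetin without the filter, and between the isomers 4 without the filter and 1 each with quantile normalization, probes above background on all 8 arrays and trend and robust eBayes. Genes called overall ranged from 0 to 436 with isorhamnetin (117 as reported), 0 to 12530 with tamarixetin (17), 7230 to 11309 with Torin1 (10642) and 0 to 14025 between the isomers (178), the upper ends for tamarixetin and the isomers without the filter.

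Some values that were not called changed sign, and none was called then. Ccng1 with tamarixetin was 0.032 with normexp, 0.022 with quantile normalization and 0.030 with the percentile over probes above background. Leaving out single arrays, Ccng1 ranged from -0.095 to 0.035 with isorhamnetin (highest without isorhamnetin replicate 1), from -0.038 to 0.022 with tamarixetin (positive without control replicate 1, 0.015, or tamarixetin replicate 2, 0.022) and from -0.087 to 0.043 between the isomers (positive without isorhamnetin replicate 1, or tamarixetin replicate 1, 0.0076). Phlda3 with isorhamnetin ranged from -0.11 to 0.021 (highest without control replicate 2). With tamarixetin, Plk2 ranged from -0.33 to 0.034 and Zmat3 from -0.23 to 0.094 (highest without control replicate 2), and Btg2 from -0.20 to 0.023 (highest without tamarixetin replicate 2). Trp53inp1 between the isomers ranged from -1.35 to 0.21 (highest without tamarixetin replicate 1). The cause of these changes was not tested.

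With the replicate number as a replicate block, 7 of the 10 genes were called with Torin1, the same 7 with Plk2 among them, and 0 in the other comparisons. The labels tie same-numbered replicates by that number alone and do not say whether they were handled together. Their deviations correlated at -0.13 to 0.08 between groups. The block moved calls over all genes from 117 to 4 with isorhamnetin, 17 to 11 with tamarixetin and 178 to 43 between the isomers. For the isomers, whose correlation was -0.13, crossed numbers were tried after seeing the data: with only these 2 groups, 0 genes were called with the crossed block and 0 with the uncrossed one. Fits without 1 array assume that the lone array varies like the other groups.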
